A study of Mus musculus with 27 samples.

Results

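Colony-stimulating factors and epithelial cytokines were followed as 10 named genes (Csf1, Csf2, Csf3, Il6, Il7, Il11, Il15, Il34, Tslp and Lif) among the 22524 genes counted in each library. Members were picked by name, with earlier results of these data already known. Each one was matched from its Ensembl identifier to its symbol, with 10 of 10 found. RNA was sequenced from 27 libraries of mouse cells. Jejunal epithelial organoids came from 9 male C57BL/6 mice of 8 to 12 weeks, littermates from 3 facilities with 3 mice each, namely the specific pathogen-free (SPF) facilities SR and SE and the germ-free facility GF. Cells of m-ICc12, an immortalised small intestinal epithelial line grown in a medium with dexamethasone, insulin and epidermal growth factor, gave 3 cultures of that 1 line. Every culture of organoids and of m-ICc12 was sequenced in a pair of libraries, of which 1 is labelled untreated and the other as exposed to 5 ng/mL TNF over 8 hr (labelled TNF-treated). Mouse embryonic fibroblasts (MEFs) gave 3 libraries without treatment. The organoids were grown without the immune, stromal and microbial partners of the tissue, and the organoid cultures of a mouse are the replicates.

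These cytokines carry signals from epithelial and stromal cells to leukocytes and to their own neighbours. CSF1 and IL-34 share the receptor CSF1R, which maintains macrophages, whereas GM-CSF (Csf2) and G-CSF (Csf3) act on granulocytes and other myeloid cells. IL-6, IL-11 and LIF signal through the shared subunit gp130 (Il6st) and STAT3, IL-7 and IL-15 through the common gamma chain (Il2rg), and TSLP through a receptor built from Crlf2 and Il7r. In the intestine, epithelial IL-15 and IL-7 are known to sustain intraepithelial lymphocytes, and TSLP to act on dendritic cells. TNF acts in large part through NF-κB, whose binding sites lie in the promoters of several cytokine genes.

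Among the members' promoters at hand, those of Csf1 and Il6 are shown because only they held a match to an NF-κB motif. The motif was taken as GGG and TTCC with 3 bases of any kind between them, searched on both strands. Csf1 was called for the treatment labels in m-ICc12, whereas Il6 had no reads at all and was not tested. Whether the motif has a part in any label difference was not tested. The windows are the 250 bases before the RefSeq start on GRCm38.p6, printed 5′ to 3′ on the strand of the gene with the match in capitals. Csf1 lies at chr3:107760470-107760719 on the minus strand and its match, on the opposite strand of the motif, begins 154 bases before the start. Il6 lies at chr5:30012864-30013113 on the plus strand and its match begins 44 bases before the start.
Csf1: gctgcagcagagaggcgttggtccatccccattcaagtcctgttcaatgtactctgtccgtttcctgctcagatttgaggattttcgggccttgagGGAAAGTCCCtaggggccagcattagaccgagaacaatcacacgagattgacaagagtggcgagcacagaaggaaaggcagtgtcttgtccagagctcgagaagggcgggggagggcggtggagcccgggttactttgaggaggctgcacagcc
Il6: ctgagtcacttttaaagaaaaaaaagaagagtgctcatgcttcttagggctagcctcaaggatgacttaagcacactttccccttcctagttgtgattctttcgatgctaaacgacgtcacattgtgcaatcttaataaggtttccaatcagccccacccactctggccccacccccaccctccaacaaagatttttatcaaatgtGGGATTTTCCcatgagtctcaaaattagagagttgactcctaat
Over all 32851 promoters of the RefSeq table, 4.65% held this motif on either strand in the same window. The table held windows for 5 of the 10 genes, and those of Csf2, Lif and both starts of Il11 had no match to these letters. The AP-1 motif TGANTCA, found in 6.75% of all promoters, had a match in Il6, in Lif and at 1 of the 2 starts of Il11. These matches describe the sequence and are no measure of binding.

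Reads counted on genes ranged from 6071103 to 43843615 per library. A level was called detected above a floor of 3 counts, which was worth 0.0655 to 0.522 CPM (counts scaled to library size with TMM factors), with the highest value in the shallowest library, culture M1 labelled TNF-treated. In all 12 cultures of organoids and m-ICc12, labels and names of the deposited data disagreed on which of the 2 libraries was treated. In these cultures the data of every library labelled untreated carry a name code that ends in T. The names of the MEF data do not. NF-κB target genes went against the labels too. Nfkbia, which encodes an inhibitor induced by NF-κB itself, had 196 ± 27.1 CPM in the organoid libraries labelled untreated and 31.1 ± 3.58 in those labelled TNF-treated (SD, n = 9 each), and was higher in the library labelled untreated in 9 of 9 organoid and 3 of 3 m-ICc12 cultures. Differences are therefore written as the library labelled untreated minus the library labelled TNF-treated, and which of them received TNF was not settled here. Epithelial markers fit the organoids, with Epcam at 976 ± 82.8 CPM and Cdh1 at 1012 ± 64.8 in libraries labelled untreated. In m-ICc12, Epcam was at 4.36 ± 2.38 and Cdh1 at 1.5 ± 0.49 CPM (n = 3), while the keratin gene Krt8 was at 1384 ± 227 and Vim, an intermediate filament gene of mesenchymal cells, at 2510 ± 600.1. Summed over 10 small intestinal lineage markers, m-ICc12 libraries labelled untreated had 19.6 to 51.0 CPM and MEFs 47.4 to 54.5. Organoid libraries labelled untreated had 3352 to 5438 CPM. The fibroblast marker Col1a1 had 2077 ± 305 CPM in MEFs, where Thy1 had no read in any library. Fewer cells with a transcript and less of it per cell cannot be told apart in bulk RNA.

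Csf1 led in m-ICc12 and in MEFs, and Il15 in organoids. Per kilobase of exon, m-ICc12 libraries labelled untreated held most Csf1 (36.8 RPKM, the CPM divided by exon length) and Il34 (29.0), then Lif (5.11), with Csf3, Il7, Tslp and Il15 between 0.186 and 0.828 RPKM. MEFs held Csf1 at 95.6 RPKM, Lif at 3.55 and Tslp at 1.65. Organoids led with Il15 (3.37 RPKM) and Lif (2.54), and their Il11, Il34, Csf1 and Il7 lay between 0.118 and 0.390 RPKM. Lif thus lay between 2.54 and 5.11 RPKM in all 3. Il6 had 0 counts in all 27 libraries, as had 5930 genes (26.3%), and its level was therefore under the floor of each library.

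**Figure D1:**
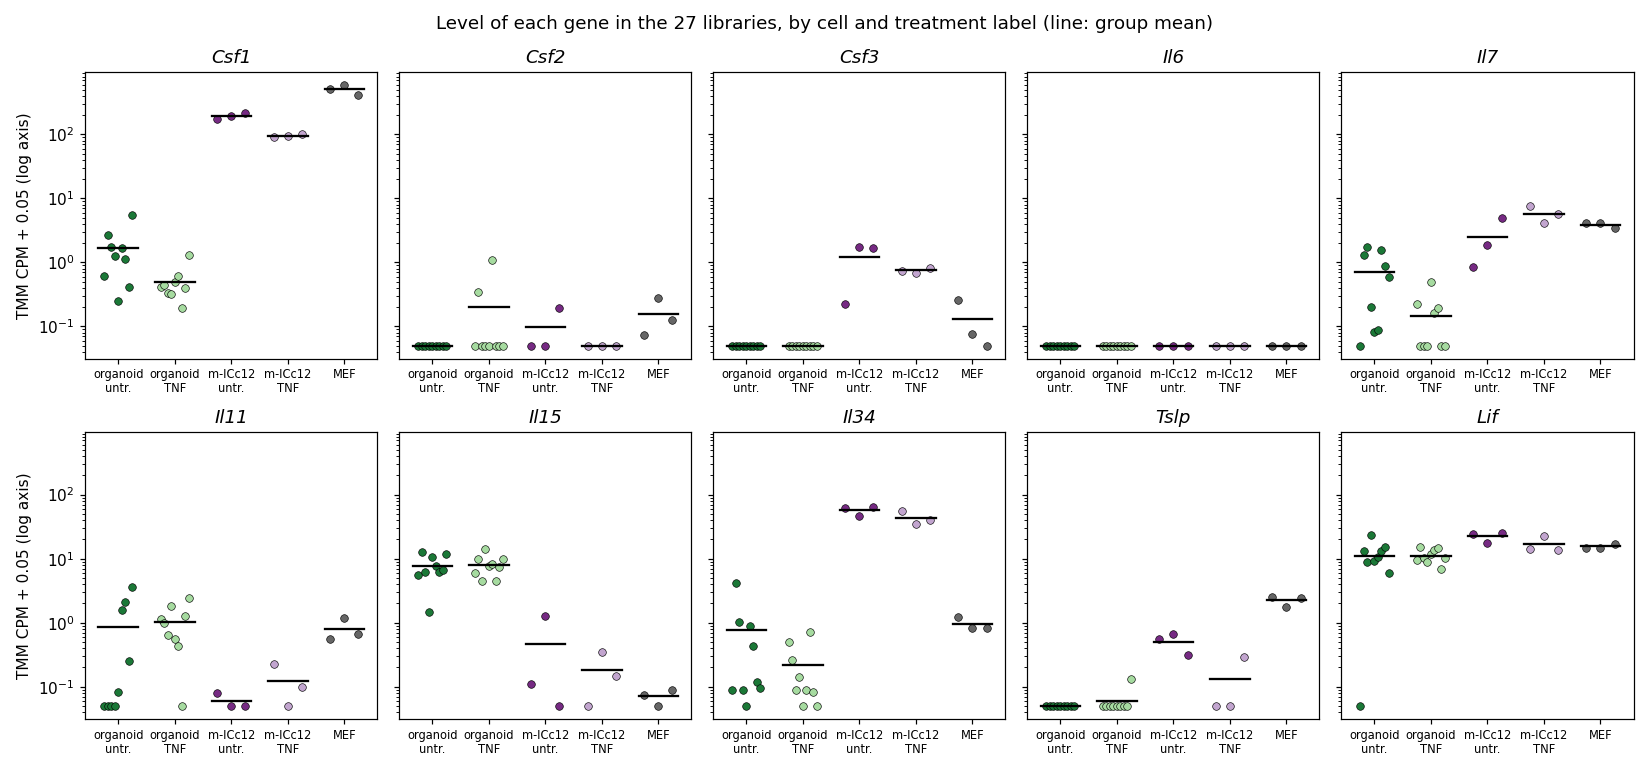
Each point is 1 library and each panel 1 gene, with the level in TMM CPM plus 0.05 on a log axis and the group mean as a line, so that points at the bottom are libraries with 0 counts. Csf1 and Il34 stand high in all 6 m-ICc12 libraries, Il15 in the organoids and Tslp in the MEFs, and Il6 has no reads anywhere.

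Between systems, calls at a Benjamini-Hochberg adjusted p under 0.05 from edgeR's quasi-likelihood test were common among all genes, so that a count of members says little by itself. In libraries labelled untreated, organoids and m-ICc12 differed for 5 of the 7 members that passed the filter of at least 10 counts in 50% of a group's libraries, where 60.9% of all genes tested were called. With MEFs, organoids differed for 4 of 7 members against 67.2% of all genes, and m-ICc12 for 5 of 7 against 59.3%. In libraries labelled TNF-treated the same comparisons called 6 of 7 members (66.8% of all genes), 4 of 7 (71.6%) and 4 of 7 (55.6%), the MEF libraries being the same untreated ones. Some members passed the filter only through the group where they were higher, so their calls add nothing to the counts of reads themselves. Csf3 did so in the comparisons with m-ICc12 and was not tested between organoids and MEFs. Tslp and Il15 did so in the comparisons with organoids. Il34 did so between organoids and m-ICc12, and Il11 between m-ICc12 and MEFs. In libraries labelled TNF-treated, Il7 in organoids and Il11 and Tslp in m-ICc12 also fell short of the filter.

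Treatment labels moved few members. In organoids, 0 of the 5 members tested were called, where 1.39% of all genes were (168 of 12104), and 2 of the 5, Csf1 and Il7, had an unadjusted p under 0.05 (DESeq2 called 0 of 5). The study's own methods used a less strict rule, a change of 0.5 or more on the log2 scale with an unadjusted p not above 0.05, which these 2 passed, against 2.91% of all genes. With the culture as a block, neither did (p of 0.078 for Csf1 and 0.093 for Il7, edgeR), while the calls over all genes increased to 397. In m-ICc12, 1 of 6 members was called, Csf1, against 0.11% of all genes (13 of 11861), and Csf1 was also the only member past the less strict rule, against 3.75%. No member, of 8 tested, had a label difference that itself differed between organoids and m-ICc12 at an adjusted p under 0.05 (edgeR; 0.159% of all genes were called), and 2 of the 8, Il7 and Tslp, had an unadjusted p under 0.05. In that test DESeq2 called 0 of the 8, and 72 genes in all against 21 with edgeR.

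Csf1, which encodes macrophage colony-stimulating factor, lies on chromosome 3 (GRCm38, chr3:107741048-107760469). The 3 m-ICc12 libraries labelled untreated had 175, 191 and 216 CPM, and those labelled TNF-treated 90.9, 92.8 and 103 CPM for the same cultures M1, M2 and M3. All 3 cultures were higher in the library labelled untreated and the groups did not overlap. The log2 difference was 1.01 ± 0.16 (SE), with an adjusted p of 0.016 (edgeR), 0.072 with the culture as a block, 0.019 without culture M1 and 0.20 without M3. Lars2 took 13.5% of the counts of the M1 library and 4.44% of those of the M3 library labelled TNF-treated and at most 0.688% elsewhere, and its part in the difference was not tested beyond leaving out these cultures. MEFs had 506, 592 and 416 CPM.

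In organoids Csf1 was low, at 0.197 to 5.46 CPM (median 1.22, 6 to 123 reads) in the libraries labelled untreated and 0.142 to 1.24 CPM (median 0.371, 3 to 44 reads) in those labelled TNF-treated. The library labelled untreated was the higher one in 8 of 9 cultures, all but Z912, although the ranges overlapped. The log2 difference of 1.85 ± 0.69 had an adjusted p of 0.33 (edgeR), or 0.11 with DESeq2, and ranged from 1.71 to 2.00 when each culture was left out. The study had placed Csf1 and Il7 in its own list of TNF-responsive genes with these libraries, so their direction is no independent evidence. Libraries of culture Z919 were the highest in both label groups. Organoids held less Csf1 than m-ICc12 by a log2 difference of -6.89 ± 0.54 and than MEFs by -8.28 ± 0.50, with adjusted p of 1e-08 and 3.7e-10 (edgeR, libraries labelled untreated). Summed over 8 fibroblast markers, organoid libraries had 12.4 to 32.5 CPM and MEFs 5766 to 6946, and the part of such cells in the organoid Csf1 reads was not tested.

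**Figure D2:**
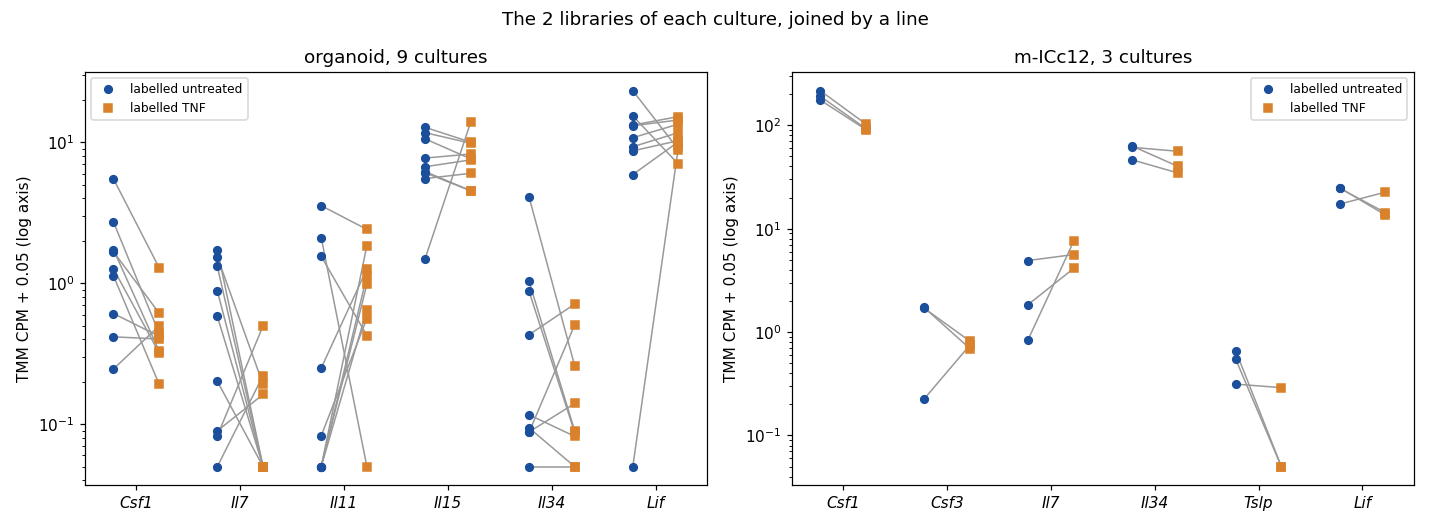
Lines join the 2 libraries of a culture, circles for the one labelled untreated and squares for the one labelled TNF-treated, in TMM CPM plus 0.05 on a log axis. Csf1 slopes down in 8 of 9 organoid and 3 of 3 m-ICc12 cultures, whereas Il7 slopes up in 3 of 3 m-ICc12 cultures and down in 6 of 9 organoid cultures.

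Il34, the other CSF1R ligand, at chr8:110741829-110805924, set m-ICc12 apart. Its m-ICc12 libraries had 61.2, 46.4 and 63.0 CPM when labelled untreated and 56.0, 34.6 and 40.2 CPM when labelled TNF-treated. MEFs had 1.16, 0.778 and 0.764 CPM. Every m-ICc12 library was above every other library. The log2 difference of m-ICc12 to MEFs was 5.91 ± 0.27 (adjusted p = 1.2e-09) and that of organoids to m-ICc12 -6.27 ± 0.98 (adjusted p = 3.5e-05, both edgeR). In the comparison with organoids, Il34 passed the filter only through m-ICc12. Among organoids, Il34 had a median of 0.0667 CPM in the libraries labelled untreated, with 0 to 2 reads in 5 of 9 and 119 reads (4.08 CPM) in culture Z909. In those labelled TNF-treated it had at most 0.662 CPM, and 6 of 9 libraries had 0 or 1 read. The label difference in m-ICc12, 0.38 ± 0.22, went the same way in 3 of 3 cultures with an adjusted p of 1.

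Csf1r, the receptor of both ligands, was read in the same m-ICc12 libraries, at 90.2 ± 22.6 CPM in those labelled untreated and 118 ± 18.3 in those labelled TNF-treated. MEFs had 0.145 ± 0.138 CPM. Organoid libraries labelled untreated had 0 to 5.82 CPM, the highest with 156 reads in culture Z908, and those labelled TNF-treated at most 0.320 CPM. Csf1r is itself a macrophage marker. Of the other 9 immune cell markers, 7 had 0 counts in all 3 m-ICc12 libraries labelled untreated, Adgre1, Itgam, Lyz2 and Laptm5 among them, and the summed level of the 9 was 8.40 to 17.99 CPM. The remaining 2 were read in all 3, Cd68 at 11.5 ± 5.60 CPM (organoids 1.49 ± 1.53, MEFs 2.16 ± 0.50) and Ptprc, the pan-leukocyte marker, at 0.807 ± 0.627 CPM (organoids 0.00441 ± 0.0132, MEFs 0.0158 ± 0.0274), and their part in the Csf1r reads was not tested. The log2 difference of Csf1r was 9.10 ± 0.40 for m-ICc12 minus MEFs (adjusted p = 7.1e-10) and -6.70 ± 1.05 for organoids minus m-ICc12 (adjusted p = 3.7e-05, edgeR). In both comparisons Csf1r passed the filter only through m-ICc12, so these calls add nothing to the reads themselves.

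Csf2 and Csf3 stayed near the floor. Csf2, which encodes GM-CSF at chr11:54247271-54249667, had 0 counts in 9 of 9 organoid libraries labelled untreated and in 7 of 9 labelled TNF-treated. The remaining 2 organoid libraries had 10 reads (0.301 CPM, culture Z909) and 28 reads (1.05 CPM, culture Z913). Of the m-ICc12 libraries, 1 of 6 had any read, with 6, and the MEF libraries had 1, 9 and 2. No comparison of Csf2 could be tested, because it passed the filter in no group. An antisense gene overlaps Csf2, and the sources used here do not give whether the counts used strand.

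Csf3, which encodes G-CSF at chr11:98701263-98703629, had 0 counts in all 18 organoid libraries. The m-ICc12 libraries had 6, 77 and 69 reads when labelled untreated (0.175, 1.68 and 1.66 CPM) and 4, 24 and 16 when labelled TNF-treated (0.696, 0.644 and 0.768 CPM). All 6 were above the floor, and the library of M1 labelled untreated was the lowest. Against the mean floor per organoid library, m-ICc12 was at least 10.0-fold higher in the libraries labelled untreated and at least 5.76-fold higher in those labelled TNF-treated. MEFs had 9, 1 and 0 reads, and the log2 difference of m-ICc12 to MEFs was 3.72 ± 1.40 with an adjusted p of 0.036 (edgeR), or 0.079 with the libraries labelled TNF-treated. Without M2, M3, R2 or R3 (the second and the third MEF library) it was 0.097 to 0.13. Labels differed by 0.73 ± 1.14 in m-ICc12, with 2 of 3 cultures higher when labelled untreated.

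The receptors of these factors were mostly unread. Csf2rb, the signalling subunit of the GM-CSF receptor, and Csf3r, the G-CSF receptor, had 0 counts in all 27 libraries. Csf2ra, the GM-CSF binding subunit, was nevertheless read in the organoids, at 10.9 ± 5.05 CPM in libraries labelled untreated and 13.4 ± 3.95 in those labelled TNF-treated. It was higher there than in m-ICc12 by 2.82 ± 0.71 on the log2 scale (adjusted p = 0.0024) and than in MEFs by 5.37 ± 0.65 (adjusted p = 2e-06, edgeR).

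Among the gp130 cytokines, Lif was read in organoids, m-ICc12 and MEFs, and Il6 not at all. Lif, which encodes leukaemia inhibitory factor at chr11:4257557-4272514, had 14.7, 14.8 and 16.9 CPM in MEFs and 24.6, 17.2 and 24.9 CPM in m-ICc12 libraries labelled untreated. Those labelled TNF-treated had 14.3, 22.5 and 13.5 CPM. Organoid libraries labelled TNF-treated ranged from 6.95 to 15.2 CPM (median 10.2, 98 to 505 reads). Of the organoid libraries labelled untreated, 8 ranged from 5.86 to 23.2 CPM, and that of culture Z908 had 0 reads where the other library of Z908 had 327. The ranges of organoids and m-ICc12 overlapped. No comparison of Lif between systems was called in libraries labelled untreated, the log2 differences being -0.99 ± 0.74 to m-ICc12 and -0.47 ± 0.77 to MEFs for organoids, and 0.48 ± 0.23 for m-ICc12 minus MEFs. With both libraries of a culture summed, the organoid to m-ICc12 difference of -0.88 was called, and so was -0.82 with culture Z908 left out. The label difference in organoids was -0.00 ± 0.44, with 7 of 9 cultures higher in the library labelled TNF-treated, and 0.39 ± 0.29 in m-ICc12.

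Il11, a stromal and epithelial cytokine at chr7:4772373-4782859, was uneven among organoids. In the libraries labelled untreated, 5 of 9 had 0 or 1 read, and the rest had 38 (Z913), 65 (Z917), 6 (Z918) and 79 reads (Z919), up to 3.51 CPM. In those labelled TNF-treated, 8 of 9 had 10 to 84 reads (0.376 to 2.36 CPM) and Z917 had 0. The library labelled TNF-treated was higher in 6 of 9 cultures, but the log2 difference of -0.27 ± 1.04 was far from the threshold (adjusted p = 0.98, edgeR), and with the block it was -2.71 ± 1.48 (adjusted p = 0.44). In m-ICc12, Il11 had 1 read over the libraries labelled untreated and 2 over those labelled TNF-treated. MEFs had 0.499, 1.13 and 0.611 CPM. Pooled over libraries labelled untreated, the MEF level was 92.3 times that of m-ICc12, with a 95% interval of 16.1 to 3690 that covers counting error only. Il11 passed the filter there only through MEFs, so its call adds nothing to these reads. The fitted difference of -6.02 ± 1.56 had an adjusted p of 0.0049 (edgeR), and 0.056 without the second MEF library.

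Of their receptor genes, Lifr, the LIF receptor gene, had 32.2 ± 8.95 CPM in m-ICc12 libraries labelled untreated and 22.1 ± 1.58 in MEFs, but at most 3 reads in any organoid library labelled untreated. Among organoid libraries labelled TNF-treated, those of Z910 and Z919 had 24 and 38 Lifr reads and the others at most 3. Il6st was read everywhere, at 58.3 ± 6.56 CPM in organoid libraries labelled untreated, 214 ± 34.5 in m-ICc12 and 356 ± 70.9 in MEFs. It was the only receptor gene called for the labels in organoids, where libraries labelled TNF-treated had 43.1 ± 5.61 CPM, a log2 difference of 0.44 ± 0.10 (adjusted p = 0.012, edgeR). Il11ra1, the IL-11 receptor, had 7.41 ± 3.19 CPM in organoids, 3.90 ± 1.62 in m-ICc12 and 9.98 ± 1.68 in MEFs.

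Il15, which sustains natural killer cells and intraepithelial lymphocytes and lies at chr8:82331632-82403222, was higher in organoids than in both other systems. It ranged from 1.44 to 12.8 CPM in the libraries labelled untreated (median 6.67, 38 to 372 reads) and from 4.48 to 13.9 CPM in those labelled TNF-treated (median 7.59, 95 to 349 reads). The lowest and the highest were the libraries of culture Z911. The m-ICc12 libraries had 2, 55 and 0 reads when labelled untreated, where culture M2 reached 1.20 CPM, and 0, 11 and 2 when labelled TNF-treated. Every organoid library was above every m-ICc12 library and above the MEF libraries, which had 1, 0 and 1 read. The log2 difference of organoids to m-ICc12 was 4.17 ± 1.13 (adjusted p = 0.0044, edgeR) and 5.48 ± 0.69 with the libraries labelled TNF-treated. Leaving out M2 moved the first to 7.93. In both, Il15 passed the filter only through the organoids. Against MEFs the pooled ratio was 415, with a counting interval of 115 to 3426. Labels moved Il15 in organoids by -0.07 ± 0.32, with 5 of 9 cultures higher when labelled untreated.

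Il15ra, which presents IL-15 to neighbouring cells, was read at 6.36 ± 3.37 CPM in organoid libraries labelled untreated and 7.72 ± 3.70 in MEFs, against 0.563 ± 0.557 in m-ICc12. Organoids were higher than m-ICc12 by 3.50 ± 0.81 on the log2 scale (adjusted p = 0.0014) and m-ICc12 lower than MEFs by -3.80 ± 0.74 (adjusted p = 7.3e-04, edgeR). Ligand and receptor were thus both detected in organoids, and the receptor without the ligand in MEFs. The signalling subunit Il2rg had 0 counts in the organoid libraries labelled untreated, and Il2rb had at most 54 reads in any organoid library.

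Il7, a growth factor of lymphocytes at chr3:7569994-7613760, had 0 to 47 reads in organoid libraries labelled untreated (at most 1.69 CPM) and 0 to 14 in those labelled TNF-treated (at most 0.448 CPM). The library labelled untreated was higher in 6 of 9 cultures and lower in 2, and culture Z911, with 4 reads against 0, counts among the 6. The log2 difference was 2.69 ± 1.10, with an adjusted p of 0.41 (edgeR). In m-ICc12 the libraries labelled untreated had 0.789, 1.79 and 4.87 CPM and those labelled TNF-treated 7.48, 4.08 and 5.57 CPM. All 3 cultures were lower when labelled untreated, and the label difference of -1.19 ± 0.72 missed the threshold (adjusted p = 1). Both systems thus pointed opposite ways, and the test of that difference gave 3.89 ± 1.87 with an adjusted p of 0.76 (edgeR). MEFs had 4.11, 4.04 and 3.44 CPM, above every organoid library. Organoid libraries labelled untreated differed from them by -2.51 ± 1.07 (adjusted p = 0.048, edgeR). That call was lost (adjusted p of 0.059 to 0.12) without any 1 of the 3 MEF libraries or of the cultures Z911, Z912, Z913, Z918 and Z919. Organoid libraries labelled TNF-treated differed from MEFs by -5.21 ± 1.10 (adjusted p = 4.6e-04, edgeR), where Il7 passed the filter only through MEFs. Against m-ICc12, organoids had -1.87 ± 1.14 in libraries labelled untreated (adjusted p = 0.17) and -5.77 ± 1.10 in those labelled TNF-treated (adjusted p = 2e-04). In the latter, Il7 passed the filter only through m-ICc12. Il7 was chosen by the study into its organoid signature with these libraries, and an antisense gene overlaps it. Its receptor gene Il7r had no read in any library.

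Tslp, an alarm cytokine of barrier epithelia on chromosome 18, was highest in MEFs, with 2.49, 1.73 and 2.37 CPM (105, 69 and 62 reads). The m-ICc12 libraries labelled untreated had 17, 28 and 11 reads (0.264 to 0.611 CPM), and of those labelled TNF-treated only M3 had any, with 5. Organoids had 3 reads in 1 of 18 libraries, that of Z919 labelled TNF-treated, and 0 in the others. Against the mean floor per organoid library labelled untreated, MEFs were at least 18.9-fold and m-ICc12 at least 3.92-fold higher. The difference of m-ICc12 to MEFs was -2.31 ± 0.80 (adjusted p = 0.025, edgeR), and 0.062 to 0.14 without M1, M3 or any 1 MEF library. The label difference in m-ICc12 was 2.29 ± 1.65 with an adjusted p of 1, and ranged from 1.32 to 7.10 when 1 culture was left out. Values were higher when labelled untreated in 3 of 3 cultures. In M1, however, the floor of the library labelled TNF-treated was 0.522 CPM, above the 0.497 CPM of the other, so that pair shows no direction. M3 differed little, with 0.264 CPM when labelled untreated and 0.240 when labelled TNF-treated. Crlf2, the TSLP-binding receptor gene, had 2.94 ± 1.51 CPM in organoids, 3.96 ± 3.32 in m-ICc12 and 3.05 ± 0.22 in MEFs.

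**Figure D3:**
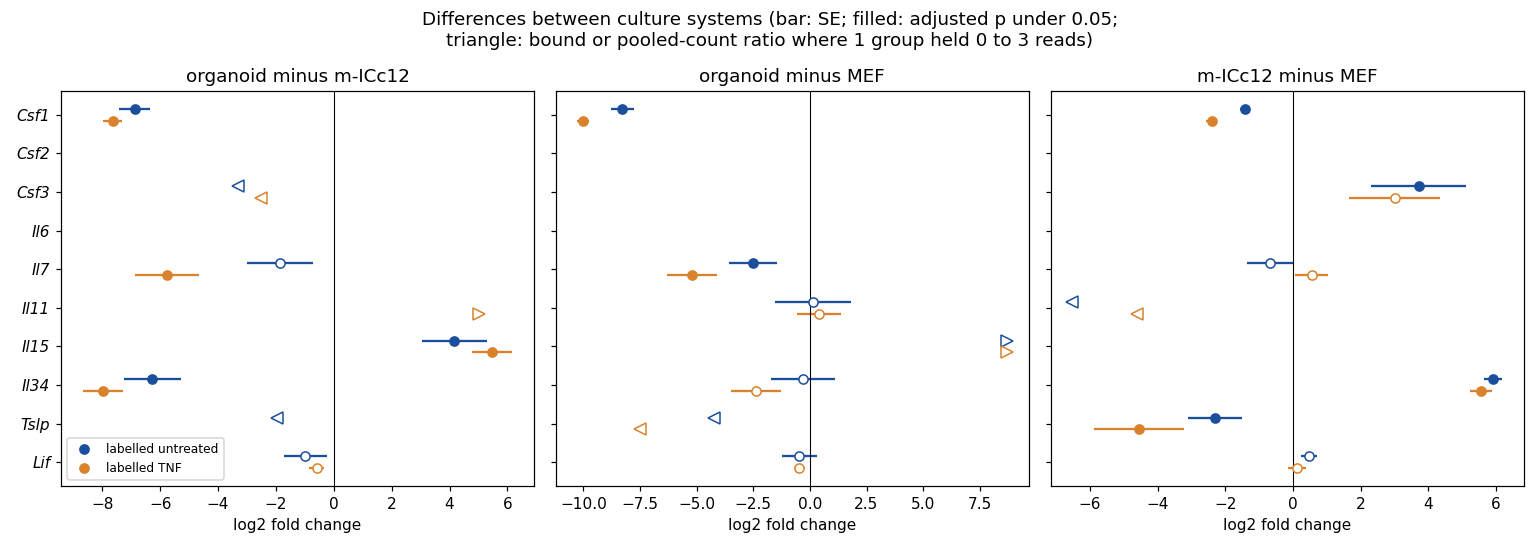
Log2 fold changes between systems are given for each member that was tested, with the standard error as a bar, in libraries labelled untreated (blue) and labelled TNF-treated (orange), the MEF libraries being the same in both. Filled circles passed an adjusted p of 0.05, and triangles stand for a bound or a ratio of pooled counts where 1 group held 0 to 3 reads. Il15 lies right of 0 in organoids, and Csf1 lies left of 0 in all 3 panels.

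**Figure D4:**
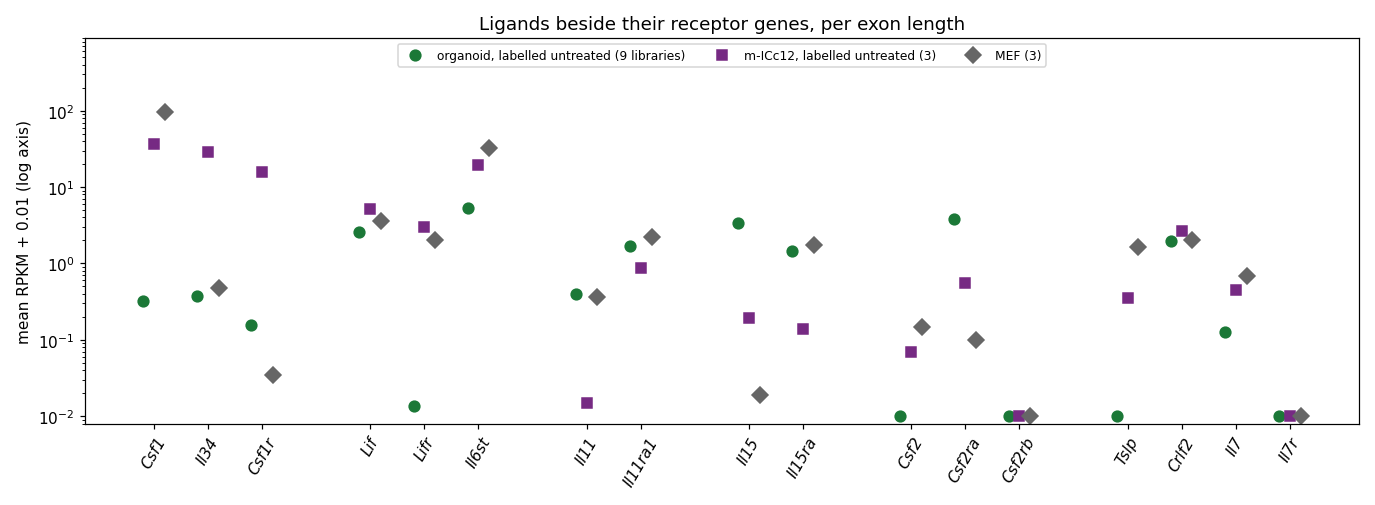
Mean RPKM plus 0.01 on a log axis for ligands and their receptor genes in libraries labelled untreated, 9 of organoids, 3 of m-ICc12 and 3 of MEFs. Csf1, Il34 and Csf1r are all high in m-ICc12, Il15 and Il15ra lie together in organoids, and Csf2rb and Il7r sit at 0 in every system.

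Over the whole list of 16 receptor genes, 8 were tested between organoids and m-ICc12, of which 2 were called higher and 3 lower in organoids, with a median log2 difference of -1.13 against 0.03 over all genes. That is 5 of 8 called, close to the 60.9% of all genes called in this comparison. Csf1r and Lifr passed the filter there only through m-ICc12. Of the further gp130 family, 6 genes were tested, with 0 called higher and 4 lower in organoids and a median of -5.10, and Ctf1, which was not called, had a difference of 0.79 ± 1.05. Among them were Osmr, the oncostatin M receptor, with -7.76 ± 0.90, Cntfr, which binds ciliary neurotrophic factor, with -8.23 ± 1.01, and the ligand gene Clcf1 with -5.32 ± 0.73. Osmr and Cntfr passed the filter only through m-ICc12, so their calls and their weight in the median add nothing to the reads themselves. Clcf1 had 70.7 ± 7.95 CPM in m-ICc12, 37.0 ± 6.69 in MEFs and 1.73 ± 2.02 in organoids. Against MEFs, 0 of 5 tested gp130 family genes were called higher and 3 lower in organoids, where 67.2% of all genes were called. Osmr passed the filter there only through MEFs.

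JAK and STAT genes, which carry the signal inside the cell, were tested for 10 of 11, the exception being Stat4 with 0 counts in all 27 libraries. In organoids 1 was called higher and 3 lower than in m-ICc12, 4 of 10 against 60.9% of all genes. The higher one was Tyk2 (1.31 ± 0.17), and Jak2 (-1.58 ± 0.14), Stat3 (-1.18 ± 0.15) and Stat5b (-0.85 ± 0.21) were lower. Of 10 genes that control cytokine mRNA decay, 4 were called higher and 4 lower (60.9% of all genes), with Zc3h12c, of the family of the endonuclease Regnase-1, at -7.09 ± 0.76 and Zfp36l1, which binds AU-rich elements, at -1.33 ± 0.11. Zc3h12c passed the filter only through m-ICc12, so its call adds nothing to the reads themselves. Of 21 other cytokine genes, 6 were tested, with 1 called higher and 3 lower in organoids, again against 60.9%. Kitl, the ligand of the receptor KIT, had 69.5 ± 6.22 CPM in organoids and 39.0 ± 1.23 in m-ICc12 (0.85 ± 0.12), and Gdf15, a stress-induced cytokine, 7.31 ± 3.92 and 152 ± 70.1 (-4.35 ± 0.40). Il24 had at most 1 read in any organoid library and 6.01 ± 3.62 CPM in m-ICc12. For the treatment labels, 0 genes of the gp130, JAK and STAT, mRNA decay and other cytokine lists were called by edgeR in either system. Over all genes, 1.39% were called in organoids and 0.11% in m-ICc12. Of the list genes tested, 7 of 28 in organoids and 3 of 32 in m-ICc12 had an unadjusted p under 0.05 (edgeR). The share of all genes at that p was not counted, so these numbers cannot be read as an excess. Of the 7 NF-κB target genes used to check the labels, all 7 had a higher mean in libraries labelled untreated in both systems. In each system 6 of them were called, against the same 1.39% and 0.11% of all genes.

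The facility of the mice was compared on the sum of both libraries of a culture, 3 germ-free against 6 SPF cultures. None of the 6 members tested was called (edgeR; 0 had an unadjusted p under 0.05, and DESeq2 called 0), where 0.054% of all genes were. Il11 had the smallest p (0.057, adjusted p = 1), with a log2 difference of 1.56 ± 0.75, GF minus SPF. Its mean CPM over cultures was 1.56 ± 1.20 in GF, 0.436 ± 0.124 in SR and 0.706 ± 0.375 in SE (SD, n = 3 each), and culture ranges of GF and SE overlapped. Il15 had 7.71 ± 2.77, 7.46 ± 3.40 and 8.23 ± 0.74 CPM in GF, SR and SE, and Lif 10.95 ± 2.89, 9.44 ± 4.78 and 12.9 ± 2.86. The log2 differences were 0.05 ± 0.34 for Il15 and -0.11 ± 0.33 for Lif (SE).

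Spread between organoid libraries was wider for these genes than for most. The fit had no culture term, so it does not part cultures from the 2 libraries of a culture. In the fit of the treatment labels the biological coefficient of variation was 85.1% for Csf1, 133% for Il7, 143% for Il11, 46.7% for Il15 and 64.4% for Lif, against a median of 22.1% over all genes. For genes of a similar level the medians were 116, 129, 122, 43.8 and 35.8%, so that Lif was the member furthest above its level class. The part of the Z908 library labelled untreated, with 0 Lif reads, was not tested.

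Patterns over the 27 libraries were matched by Pearson's r of log2 CPM with 14132 genes, as a description, since the libraries fall into 3 systems and share them. Csf1 was most like Zfpm2 (r = 0.974), Sfxn3 and Npr3, and 482 genes had r over 0.9 with it. Il15 was most like Nostrin (0.968), Pllp and Jaml, with 754 such genes, and Il34 like Hdac6 (0.936), Srgap3 and Psmd10. Csf3 was most like A530016L24Rik (0.972), Il24 and St8sia2, and Tslp like Foxf2 (0.979), 9930111J21Rik2 and Ctsw. Lif had 1 gene over 0.9, Ifi27 (0.902), and Il7 (Osbpl1a, 0.886) and Il11 (Lypd6, 0.718) had none.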

How the data were processed

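Poly(A) RNA of 27 libraries was prepared with a TruSeq kit, which the labels call stranded and the paper names without that word. After trimming, the authors mapped reads to GRCm38 with STAR, and the deposited values are raw counts per gene. The paper names GenomicRanges and the submitters' processing notes featureCounts as counter, and use of strand is not given in the sources used here. Symbols and exon lengths came from GENCODE vM21 (22214 of 22524 identifiers matched) and promoters from RefSeq (GRCm38.p6).

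Groups followed the labels. Genes with at least 10 counts in 50% of the libraries of 1 compared group were tested over the whole table in edgeR 4.0.16 (R 4.3.3) with TMM normalization, the quasi-likelihood F-test without covariates and Benjamini-Hochberg adjustment. The detection floor was 3 counts per library. CPM and RPKM were computed from the counts with TMM library sizes. Intervals (95%, exact) and floors cover counting error only. P-values measure the spread between the libraries compared, which for m-ICc12 and MEFs may be technical. In label tests without the block, the 2 libraries of a culture entered as separate replicates. For the facility the spread is that between cultures. The 10 members and all lists were chosen with earlier results of these data known. Named genes were the members, all receptors, up to 4 genes of smallest p per list and comparison among those called, and the 3 genes most like each member. Ctf1 and Stat4 were named after their values were seen. Of these steps, the edgeR tests of the main comparisons were tried on simulated data.

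The 2 libraries of a culture are paired by its name in the labels, and their deviations correlated with a mean r of 0.172 in organoids (0.031 in m-ICc12). Alternatives were the culture as a block, DESeq2 1.42.0, RLE size factors, no filter, summed libraries and leaving out each culture. The proteome was not analysed here, and 1 gene of the gp130 family list is not reported by name.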

Additional observations from a re-analysis of the deposited data

Results flagged for a closer look

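Among 13 member and label groups of 9 organoid libraries, 5 held 1 library far from the others. The gap to its nearest neighbour was more than 0.493 of the group's range (Dixon's criterion). Chance gives such a gap in about 1 in 20 groups of normally distributed values. These levels are skewed, with many near the floor or at 0, so that rate does not apply and the flags are a description. Csf1 was highest in culture Z919 in both label groups, with 5.46 CPM against 2.67 in the next library labelled untreated and 1.24 against 0.563 in those labelled TNF-treated. Csf2 had 1.05 CPM in the library of Z913 labelled TNF-treated, against 0.301 in the next. Il7 had 0.448 CPM in that of Z912 labelled TNF-treated, against 0.171. Il34 had 4.08 CPM in that of Z909 labelled untreated, against 0.988.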

How the results depend on the processing

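The number of genes called in the organoid label comparison (168) was 397 with the culture as a block and 136 to 164 without 1 culture. For the m-ICc12 labels (13) it was 46 with DESeq2, 30 with all genes of at least 1 count, 6 with the block and 15 to 93 without 1 culture. The difference of both label effects (21) had 72 calls with DESeq2, 103 with the block and 11 to 40 without 1 culture, and GF minus SPF (7) had 24 with DESeq2, 4 in the libraries of either label alone and 4 to 8 without 1 culture. The calls between systems stayed within 1.5 times of their main count under every alternative run.

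Of single members, the block took the call of Csf1 in m-ICc12 and turned Il11 in the difference of effects from 1.74 to -0.41. No other member's call changed with the block. No member called in the main tests changed sign. Signs turned for differences that were not called. In the libraries labelled TNF-treated, Il7 in m-ICc12 minus MEFs was 0.55. GF minus SPF was 0.066 for Lif in the libraries labelled untreated only and -0.20 for Il15 in those labelled TNF-treated only. Leaving out 1 culture or library gave ranges of -0.76 to 0.046 (Il11), -0.15 to 0.21 (Il15) and -0.26 to 0.14 (Lif) for the organoid labels, -1.66 to 1.16 for Il15 in the difference of effects, -0.63 to 0.56 for Il11 in organoids minus MEFs, and -0.69 to 1.07 (Csf1), -0.24 to 0.25 (Il15) and -0.28 to 0.083 (Lif) for GF minus SPF. The cause was not tested. Tslp in organoids minus m-ICc12 was not called with DESeq2 (adjusted p = 0.11). Depth limits Csf2, Csf3, Il6 and Tslp in organoids, where any level under the floor of 3 counts goes unseen.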
